A study of Homo sapiens with 5 samples.

Results

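The p53 target genes described here are 32 genes listed as targets of the transcription factor p53, with roles in feedback control, cell cycle arrest, apoptosis, DNA repair and metabolism. Whether p53 drives each of these genes in the cells used was not tested, and other regulators can act on them. They were taken by name, not by a threshold on measured values, though earlier results of these data were known. FPKM (fragments per kilobase of transcript scaled to the library's mapped fragments) was summed over the annotated Ensembl transcript rows of each gene. All 32 had rows among the 44260 genes of the tables, and 24 of the 32 passed the rule for levels that can be compared, against 12849 genes in all. Total RNA came from WI-38, a line of human diploid lung fibroblasts with a limited number of divisions. The 5 groups were untransfected cells at population doubling level (PDL) 15, untransfected cells at PDL 55, and cells at PDL 15 transfected with a control siRNA, with siRNA against AUF1 or with siRNA against HuR. Each group had 1 library. No difference below therefore has a replicate check, no p-value is given, and each count compares 2 libraries rather than 2 conditions. The labels do not say whether the transfected and untransfected cells came from separate cultures, how long after transfection they were taken, or which siRNA sequences were used. AUF1 and HuR are proteins that bind AU-rich sequences in mRNAs and alter their stability and translation.

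In unstressed cells p53 is kept low by MDM2, a ubiquitin ligase, together with its relative MDM4. DNA damage and other stresses release p53 from this control, and it then activates genes that halt the cell cycle, repair DNA or start apoptosis, as well as MDM2 itself, which closes a feedback loop. In fibroblasts that reach the end of their replicative lifespan, lasting p53 activity and its target CDKN1A hold the cells in arrest.

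The control siRNA library stood apart in depth. The number of reads was not stated, but the median ratio of deposited coverage to FPKM follows depth, and it was 0.30 with control siRNA and 1.14 to 1.29 in the other 4 libraries. Differences against control siRNA are therefore the least precise. HNRNPD, the gene of AUF1, was at 20.3 FPKM with AUF1 siRNA and 61.2 with control siRNA. The HuR siRNA library had 120 FPKM of HNRNPD, the PDL 15 library 119 and the PDL 55 library 42.3. ELAVL1, the gene of HuR, was at 9.72 FPKM with HuR siRNA and 11.8 with control siRNA, a small difference. The AUF1 siRNA library had 17.7 FPKM of ELAVL1, the PDL 15 library 16.7 and the PDL 55 library 12.2. Both genes were thus lower with control siRNA than in untransfected PDL 15 cells. Knockdown below names the siRNA used, and loss of either protein was not tested. The 10 fibroblast markers summed to 1435 to 6969 FPKM per library, against 4.38 to 16.7 for 8 epithelial, 4.71 to 14.6 for 6 endothelial and 0.519 to 5.37 for 7 blood markers. PECAM1, 1 of the endothelial markers, had no matching row. The fibroblast marker VIM was listed at 0 in all 5 libraries, and COL1A1 with HuR siRNA alone, so a listed 0 can be a failed estimate.

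Of the 8 members that could not be compared, 5 were listed at 0 FPKM in every library. These were MDM2, the p53 ubiquitin ligase (ENSG00000135679, hg19 chromosome 12, 69201956 to 69239214), the death receptor FAS, the quinone oxidoreductase TP53I3, the translesion polymerase POLH and CYFIP2, a subunit of an actin-regulating complex. Of the annotated transcripts of MDM2, 28 had status FAIL and 13 status LOWDATA in each library, and CYFIP2 had status FAIL at PDL 55. TP53I3, FAS and POLH overlap other genes whose rows did hold signal. FAM228B, which overlaps TP53I3, was at 58.0 to 117 FPKM, and GTPBP2, which overlaps POLH, at 22.4 to 59.2. ACTA2, which overlaps FAS, was at 107 FPKM at PDL 15 but was itself listed at 0 with AUF1 and HuR siRNA. The zeros therefore cannot be read as absence of these mRNAs. TNFRSF10B had status FAIL with control siRNA. BBC3, the BH3-only protein PUMA, and FDXR, a mitochondrial ferredoxin reductase, had a mean FPKM under 1. BBC3 ranged from 0.411 to 1.66 FPKM over the libraries and FDXR from 0 with HuR siRNA to 2.61 with control siRNA. With transcripts assembled over the whole gene FDXR was instead highest with HuR siRNA, at 4.18 FPKM, while control siRNA had 3.19 and PDL 55 had 0.845.

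The promoter sequences show which members carry the p53 consensus close to a start site. RefSeq windows (GRCh38.p14, 250 bases before to 50 after a start) were found for 27 of the 32 members, 40 windows in all. The p53 consensus decamer was searched in these windows. It reads the same on both strands, so 1 search covers both. A perfect decamer was present in 7 of the 40 windows (17.5%) and in 6.63% of all 35116 windows. A full site, meaning 2 decamers 0 to 13 bases apart with intact central 4 letters and at most 2 mismatches, was present in 3 member windows (7.50%) and in 1.46% of all windows. The sites are printed in capitals, 5′ to 3′ on the strand of the gene. A full site may contain a perfect decamer, so both counts can include the same window. DDB2, AEN and FAS had the full sites, and PLK2, RPS27L, SESN1 and FDXR a single decamer each.
DDB2, full site without mismatch, plus strand, chr11:47214979-47214999: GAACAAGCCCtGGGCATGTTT
AEN, full site, plus strand, chr15:88621306-88621325: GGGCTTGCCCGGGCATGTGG
FAS, full site, plus strand, chr10:88991309-88991328: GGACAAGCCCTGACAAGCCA
PLK2, single decamer, minus strand, chr5:58460209-58460218: AGACTTGCTT
RPS27L, single decamer, minus strand, chr15:63157527-63157536: AGACAAGCCC
SESN1, single decamer, minus strand, chr6:109009028-109009037: GGACAAGTCT
FDXR, single decamer, minus strand, chr17:74872996-74873005: GGGCTTGCCC
The 250 bases before the start are shown for PLK2 and AEN, since PLK2 was the member furthest below its PDL 15 level at PDL 55 and AEN the member whose annotated rows were at 0 in 3 libraries.
PLK2, minus strand, chr5:58460087-58460336: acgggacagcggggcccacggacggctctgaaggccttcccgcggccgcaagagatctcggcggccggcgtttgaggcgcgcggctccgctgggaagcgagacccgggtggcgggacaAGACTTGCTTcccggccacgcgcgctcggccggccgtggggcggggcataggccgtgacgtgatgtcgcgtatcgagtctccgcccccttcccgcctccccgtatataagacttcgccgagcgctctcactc
AEN, plus strand, chr15:88621090-88621339: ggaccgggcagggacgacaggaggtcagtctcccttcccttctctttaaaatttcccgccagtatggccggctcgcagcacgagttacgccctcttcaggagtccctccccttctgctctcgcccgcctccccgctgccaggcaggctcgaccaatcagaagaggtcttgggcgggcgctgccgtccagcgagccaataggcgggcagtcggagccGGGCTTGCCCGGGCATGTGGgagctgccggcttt
A match describes these letters only, and a window without one says nothing of sites elsewhere in the gene.

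Differences are given as log2((FPKM + 1)/(FPKM + 1)) relative to the median of all 12849 genes, a scale that understates differences at low levels. The deposited medians that were subtracted were -0.32 for PDL 55 against PDL 15, 0.18 and 0.30 for the AUF1 and HuR knockdowns against control siRNA, -0.41 for control siRNA against PDL 15 and -0.11 for AUF1 against HuR siRNA. A gene at least 2-fold apart on this scale, that is 1 log2 unit, is counted as higher or lower. Intervals are the deposited 95% bounds summed over transcripts. They describe the estimate within 1 library, not the spread between cultures.

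At PDL 55 the p53 target genes did not move as a block. PERP, a membrane protein of p53-dependent apoptosis, stood far above PDL 15, and the stress kinase PLK3, the stress sensor GADD45B and the ribonucleotide reductase subunit RRM2B were also higher. PLK2, RPS27L and MDM4 were lower. As a count, 4 of 24 members were at least 2-fold higher, where 9.38% of all genes were, and 3 of 24 lower, where 10.2% of all genes were. The other 17 lay within 2-fold, and the median member was at 0.20. As deposited, without subtracting the median gene, 2 were higher and 4 lower. The share of all genes past 2-fold was not taken on that scale, so these deposited counts have no background. Cycling markers differed between these libraries, with 5 of 6 lower at PDL 55 and a summed FPKM of 15.5 against 66.6. Their part in the values of the members was not tested.

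**Figure D1:**
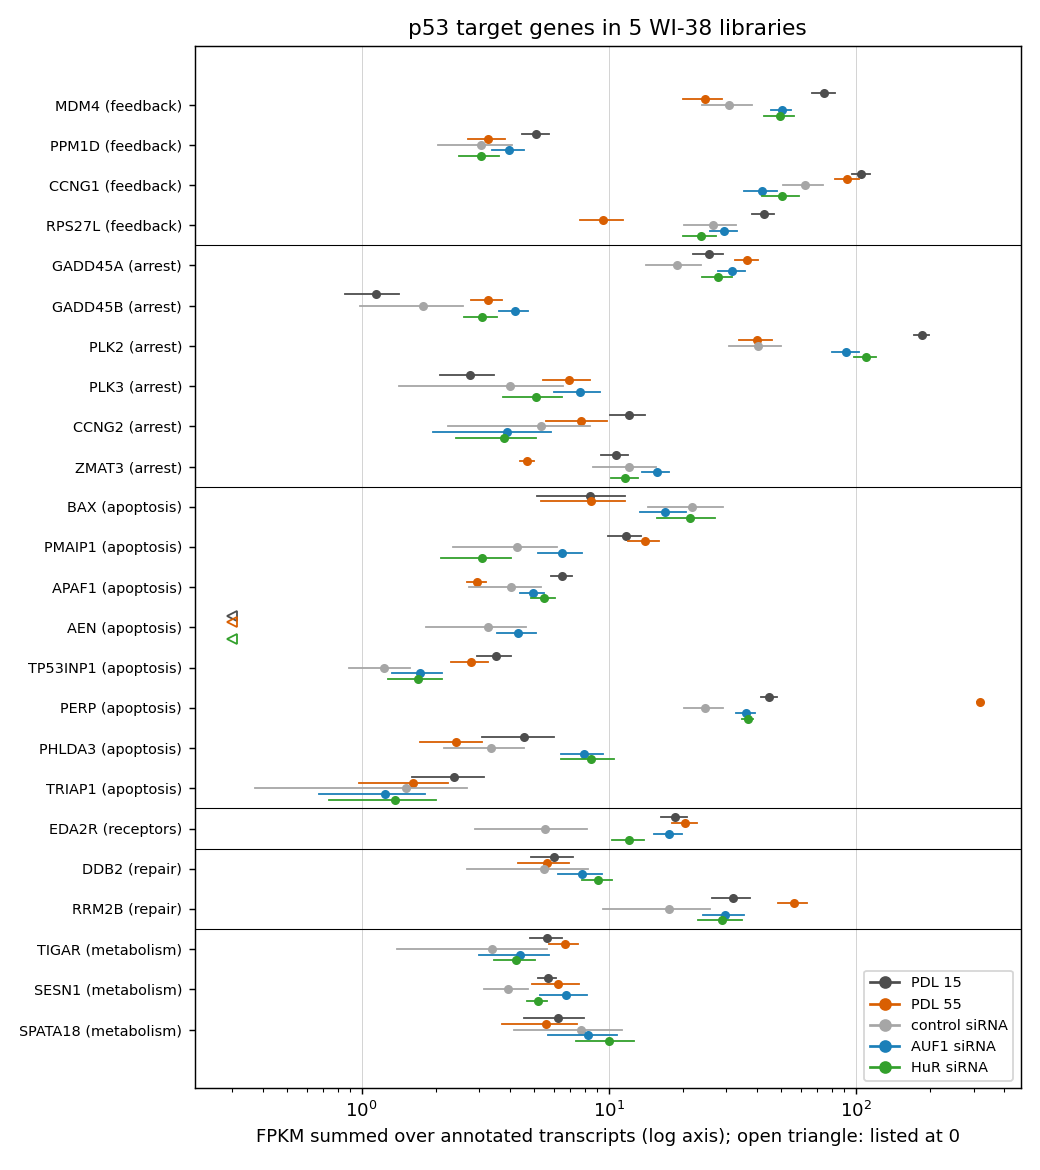
FPKM of the 24 comparable p53 target genes on a log axis, by role, in the 5 libraries (points, with lines for the deposited 95% bounds). PERP at PDL 55, at 319 FPKM, is the highest value of any member, and AEN is listed at 0 in 3 libraries.

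After AUF1 siRNA, 1 of 24 members was at least 2-fold higher than with control siRNA, where 10.4% of all genes were, and 0 lower, where 11.7% of all genes were. That member was EDA2R, a death receptor relative that binds ectodysplasin A2. The median member was at 0.22, and 18 of 24 lay above the median gene. As deposited, 3 were higher, EDA2R, PLK2 and PHLDA3, at 1.51, 1.16 and 1.04. After HuR siRNA, 1 of 24 was higher, the kinase PLK2, where 11.2% of all genes were, and 1 lower, where 12.1% of all genes were. The lower one was AEN, a nuclease of apoptosis, whose annotated rows were listed at 0 with HuR siRNA. The median member after HuR siRNA was at 0.01. As deposited, 3 were higher and 1 lower after HuR siRNA. Control siRNA against PDL 15, 2 libraries without a named knockdown, had 2 members higher, BAX and AEN, the latter listed at 0 at PDL 15 (14.2% of all genes), and 2 lower, PLK2 and EDA2R (11.9% of all genes), with a median of -0.17, and as deposited 2 were higher and 6 lower. AUF1 against HuR siRNA had 1 member higher, AEN (6.53% of all genes), and 0 lower (6.43% of all genes), with a median of 0.15. The comparisons with control siRNA share that library, as those with PDL 15 share theirs. The counts as deposited have no share of all genes beside them here either.

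**Figure D2:**
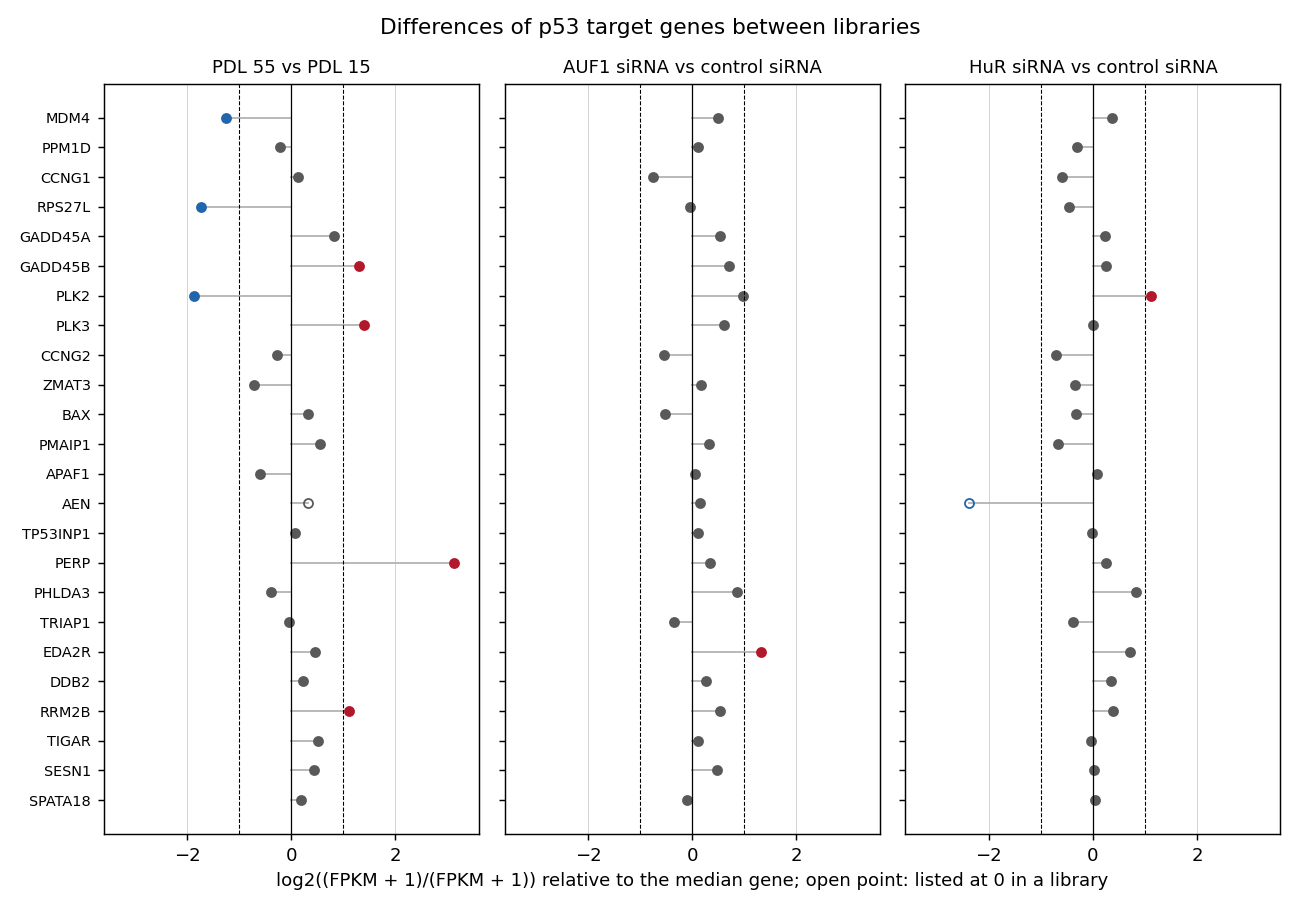
Log2 differences of the 24 members relative to the median gene for 3 comparisons, with dashed lines at a 2-fold difference. At PDL 55, 7 members lie past the lines, from -1.87 for PLK2 to 3.12 for PERP, and after AUF1 siRNA EDA2R alone does.

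The feedback genes restrain p53 or its kinases. MDM4, which binds p53 and blocks its activation domain (ENSG00000198625, hg19 chromosome 1, 204485511 to 204542871), was at 74.3 FPKM at PDL 15, 24.5 at PDL 55, 30.8 with control siRNA, 50.1 with AUF1 siRNA and 49.3 with HuR siRNA. The PDL 15 interval (66.4 to 82.3) lay above those of all other libraries, and the PDL 55 and control siRNA intervals (20.0 to 28.9 and 23.8 to 37.9) overlapped. MDM4 was at -1.25 at PDL 55 against PDL 15 and at -0.37 against control siRNA. Transcripts under 1000 nucleotides held 97.1% of its FPKM. Of its leading rows, ENST00000367183 (646 nucleotides) was at 29.6, 6.51, 11.0, 26.8 and 14.5 in the order above. CCNG1, cyclin G1, which recruits a phosphatase to MDM2 (ENSG00000113328, hg19 chromosome 5, 162864575 to 162875197), was at 105 FPKM at PDL 15, 92.7 at PDL 55, 62.2 with control siRNA, 41.8 with AUF1 siRNA and 50.4 with HuR siRNA. Its knockdown values were the lowest, at -0.74 for AUF1 and -0.60 for HuR siRNA against control siRNA. The interval with control siRNA (51.0 to 73.5) did not overlap that with AUF1 siRNA (35.5 to 48.2) but overlapped that with HuR siRNA (41.8 to 58.9). Summed over transcripts of status OK alone, these differences turned to 2.27 and 2.10. The leading row, ENST00000509143, had status LOWDATA with control siRNA alone, so that setting removed its 37.8 FPKM there. Its 18.4 and 22.2 FPKM with AUF1 and HuR siRNA stayed in. The turned values thus compare unlike rows and do not give the direction of CCNG1. PPM1D, the phosphatase WIP1 that dephosphorylates p53 and its kinases, ranged from 3.04 FPKM with HuR siRNA to 5.11 at PDL 15. Its PDL 15 interval (4.45 to 5.76) lay above those of PDL 55, control siRNA and HuR siRNA, and overlapped that with AUF1 siRNA. All of this FPKM was in ENST00000544712, a row not in GENCODE 29, and the coding row ENST00000305921 was listed at 0 throughout.

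RPS27L, a ribosomal protein relative that binds MDM2 (ENSG00000185088, hg19 chromosome 15, 63445539 to 63450220), was at 42.4 FPKM at PDL 15, 9.51 at PDL 55, 26.5 with control siRNA, 29.4 with AUF1 siRNA and 23.6 with HuR siRNA. The PDL 55 value was the lowest, at -1.73 against PDL 15. This holds for annotated rows alone. In the PDL 55 library 48.4 FPKM more stood in transcripts assembled from the reads at this gene. These reached down to position 63437222, outside the annotated gene on its downstream side. With them PDL 55 was the highest of the 5 libraries, at 57.9 FPKM and 0.76 against PDL 15. The direction for RPS27L at PDL 55 thus turned with the rows summed.

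Among the arrest genes, the polo-like kinases PLK2 and PLK3 differed in direction at PDL 55. PLK2, a kinase of the stress response and centriole cycle (ENSG00000145632, hg19 chromosome 5, 57749809 to 57756087), was at 186 FPKM at PDL 15, 39.9 at PDL 55, 40.4 with control siRNA, 91.5 with AUF1 siRNA and 109.7 with HuR siRNA. PDL 55 and control siRNA shared the low level, with intervals of 33.7 to 46.0 and 30.8 to 49.96, and PDL 15 was the highest (172 to 199). The full coding row, ENST00000274289, was listed at 0 in every library, and these values come from 5 shorter rows, of which 1 is a processed transcript, 3 retain an intron and 1 is not in GENCODE 29. The differences were -1.87 at PDL 55 and -1.76 with control siRNA, each against PDL 15. With AUF1 and HuR siRNA, PLK2 was at 0.98 and 1.12 against control siRNA, but at -0.81 and -0.67 against PDL 15. Both knockdown libraries therefore lay between the control siRNA and PDL 15 libraries when all annotated rows were summed. On transcripts of status OK alone the AUF1 value against control siRNA turned to -0.10. The HuR value was 0.67 on those transcripts, below 2-fold. PLK3, a related kinase (ENSG00000173846, hg19 chromosome 1, 45265897 to 45271662), was at 2.76 FPKM at PDL 15, 6.93 at PDL 55, 3.98 with control siRNA, 7.63 with AUF1 siRNA and 5.10 with HuR siRNA. Its coding row ENST00000372201 was also listed at 0 throughout, and the values come from 2 processed transcripts and a row not in GENCODE 29. PLK3 was at 1.40 at PDL 55, and at 0.15 when only transcripts of status OK were summed. The control siRNA interval (1.42 to 6.54) overlapped those of all other libraries.

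GADD45A and GADD45B bind kinases and repair proteins after stress. GADD45A (ENSG00000116717, hg19 chromosome 1, 68150744 to 68154021) was at 25.5 FPKM at PDL 15, 36.4 at PDL 55, 18.9 with control siRNA, 31.6 with AUF1 siRNA and 27.8 with HuR siRNA. Its PDL 55 interval (32.4 to 40.4) lay above that of PDL 15 (22.0 to 29.02), and its difference of 0.81 was below 2-fold. GADD45B (ENSG00000099860, hg19 chromosome 19, 2476123 to 2478257) was at a lower level throughout, with 1.14 FPKM at PDL 15, 3.24 at PDL 55, 1.78 with control siRNA, 4.16 with AUF1 siRNA and 3.07 with HuR siRNA. It was at 1.30 at PDL 55 against PDL 15, 0.99 as deposited, and at 0.57 against control siRNA. CCNG2, cyclin G2, which is linked to cell cycle exit, went from 12.1 FPKM at PDL 15 to 3.76 with HuR siRNA. Its differences were -0.27 at PDL 55, -0.55 for AUF1 and -0.71 for HuR siRNA. ZMAT3, an RNA-binding zinc finger protein, ranged from 4.68 FPKM at PDL 55 to 15.7 with AUF1 siRNA on annotated rows. With assembled transcripts it was at 18.7 at PDL 15 and 34.3 at PDL 55, so PDL 55 went from the lowest to the highest library and the difference from PDL 15 from -0.72 to 1.16.

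**Figure D3:**
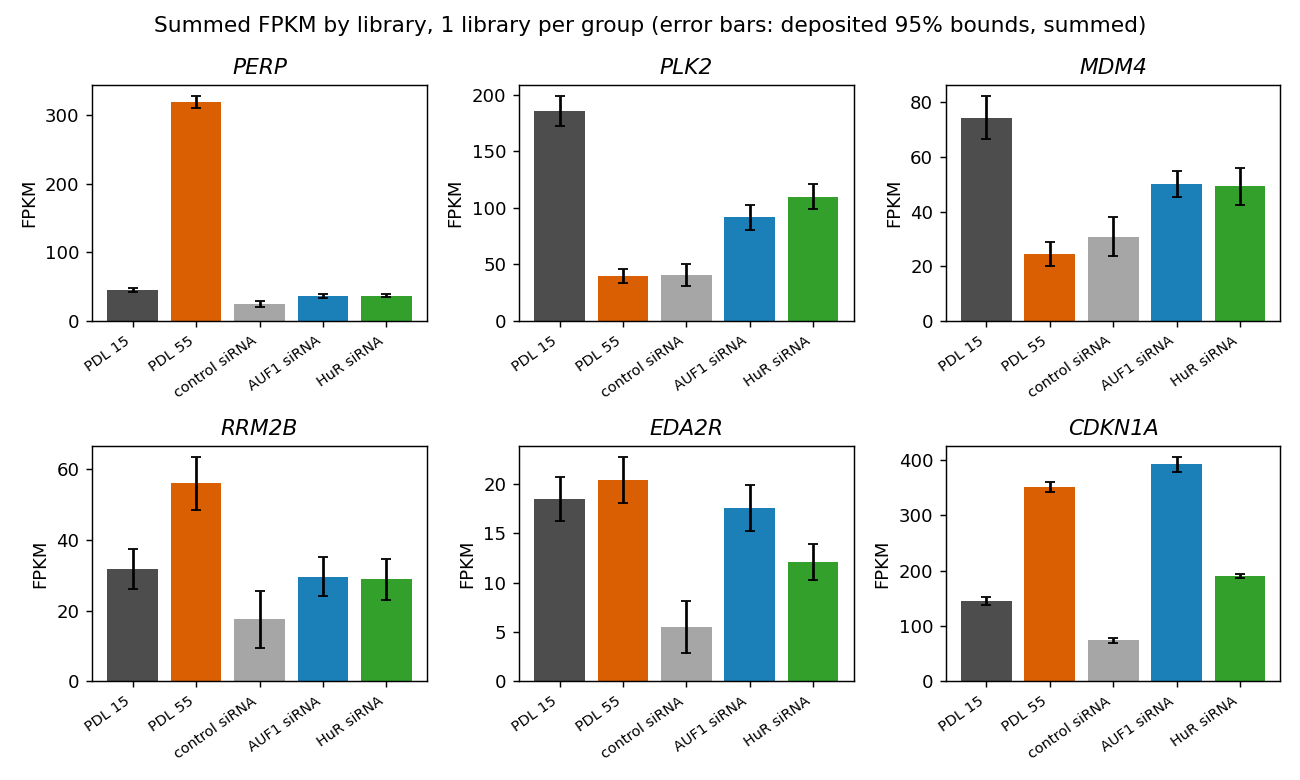
FPKM of PERP, PLK2, MDM4, RRM2B, EDA2R and CDKN1A by library, with error bars for the deposited 95% bounds and axes from 0. PERP is high at PDL 55 alone (319 FPKM), PLK2 is low both at PDL 55 and with control siRNA (39.9 and 40.4), and CDKN1A is high at PDL 55 and with AUF1 siRNA (351 and 392).

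Of the 11 members of the mitochondrial and effector side of apoptosis, 8 could be compared. PERP (ENSG00000112378, hg19 chromosome 6, 138411923 to 138428648) was at 44.7 FPKM at PDL 15, 319 at PDL 55, 24.7 with control siRNA, 35.9 with AUF1 siRNA and 36.6 with HuR siRNA. The PDL 55 interval (309.9 to 328) lay far above the other 4, whose highest bound was 47.9. The difference was 3.12 against PDL 15 and 3.597 against control siRNA. Both annotated transcripts took part, ENST00000421351 at 207.6 FPKM against 30.0 at PDL 15 and ENST00000265603 at 111 against 14.7. After AUF1 and HuR siRNA, PERP was at 0.34 and 0.25 against control siRNA.

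BAX, the pore-forming protein of the outer mitochondrial membrane (ENSG00000087088, hg19 chromosome 19, 49458072 to 49465055), was at 8.43 FPKM at PDL 15, 8.48 at PDL 55, 21.7 with control siRNA, 17.0 with AUF1 siRNA and 21.3 with HuR siRNA. All 3 transfected libraries lay above both untransfected ones, with intervals that did not overlap. The difference of control siRNA against PDL 15 was 1.68, and the knockdowns were at -0.52 and -0.33 against control siRNA. On the leading transcript alone, which was listed at 0 with control siRNA, the difference between control siRNA and PDL 15 turned to -1.55. PMAIP1, the BH3-only protein NOXA, had the opposite order, with 11.7 FPKM at PDL 15 and 14.0 at PDL 55 but 4.27, 6.50 and 3.07 with control, AUF1 and HuR siRNA. TP53INP1, a nuclear stress protein, was likewise higher in the untransfected libraries, at 3.49 and 2.78 FPKM, than with siRNA, at 1.23, 1.72 and 1.70. With assembled transcripts TP53INP1 was at 8.46 FPKM with AUF1 siRNA. PHLDA3, an inhibitor of AKT, was at 7.95 FPKM with AUF1 siRNA and 8.46 with HuR siRNA, against 3.35 with control siRNA, 4.53 at PDL 15 and 2.40 at PDL 55. Its differences of 0.86 and 0.82 against control siRNA were below 2-fold, with intervals that did not overlap. With transcripts assembled over the whole gene PHLDA3 was at 5.01 FPKM at PDL 55 and 4.68 with control siRNA, both then above PDL 15, and the knockdown differences were 0.42 and 0.39. APAF1, the apoptosome scaffold, ranged from 2.93 FPKM at PDL 55 to 6.46 at PDL 15. Transcripts assembled within the gene raised APAF1 to 11.2 FPKM at PDL 15 and 10.0 with AUF1 siRNA, and left PDL 55 at 2.93. TRIAP1, an inhibitor of apoptosis, stayed between 1.24 and 2.36 FPKM.

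AEN (ENSG00000181026, hg19 chromosome 15, 89164527 to 89175513) was listed at 0 on annotated rows at PDL 15, at PDL 55 and with HuR siRNA, and was at 3.24 FPKM with control siRNA and 4.31 with AUF1 siRNA. Its transcripts assembled from the reads were at 7.49 FPKM at PDL 15, 4.83 at PDL 55, 3.45 with control siRNA, 8.98 with AUF1 siRNA and 9.37 with HuR siRNA. Summed, AEN was detected in all 5 libraries, between 4.83 and 13.3 FPKM. The counts above that include AEN thus rest on which rows hold its signal.

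The death receptors were read in 2 genes. EDA2R (ENSG00000131080, hg19 chromosome X, 65815479 to 65859108) was at 18.5 FPKM at PDL 15, 20.4 at PDL 55, 5.54 with control siRNA, 17.6 with AUF1 siRNA and 12.1 with HuR siRNA. The control siRNA library alone was low, with an interval of 2.89 to 8.19 below those of the other 4. The difference of 1.33 after AUF1 siRNA against control siRNA was 0.14 against PDL 15, and it was 0.62 against control siRNA with assembled transcripts. TNFRSF10B, the TRAIL receptor DR5 (ENSG00000120889, hg19 chromosome 8, 22877646 to 22926692), was at 19.2 FPKM at PDL 15, 19.7 at PDL 55, and 28.7 and 30.2 in the AUF1 and HuR knockdowns. It was listed at 0 with control siRNA, where its rows had status FAIL, so no knockdown difference is given. Among the 4 libraries with a value, the intervals of the knockdowns (26.7 to 30.7 and 27.9 to 32.5) lay above those at PDL 15 and PDL 55 (17.6 to 20.8 and 18.1 to 21.3). Most of this FPKM was not in coding rows. A row of the nonsense-mediated decay class, ENST00000523504, held 50.4% and a retained-intron row, ENST00000523752, held 45.4%. The coding row ENST00000276431 was at 4.03 FPKM with HuR siRNA and listed at 0 elsewhere. With assembled transcripts TNFRSF10B was at 22.3 at PDL 15 and 24.9 at PDL 55.

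Of the repair genes, RRM2B, the p53-inducible subunit of ribonucleotide reductase (ENSG00000048392, hg19 chromosome 8, 103216730 to 103251346), was at 31.8 FPKM at PDL 15, 56.0 at PDL 55, 17.6 with control siRNA, 29.7 with AUF1 siRNA and 28.9 with HuR siRNA. The PDL 55 interval (48.6 to 63.5) lay above the other 4. The difference was 1.11 relative to the median gene and 0.80 as deposited. A transcript of 201 nucleotides, ENST00000519962, held 92.0% of its FPKM, and FPKM is uncertain for so short a transcript. The transcript of 4931 nucleotides, ENST00000251810, gave the same highest library, at 1.64 FPKM at PDL 15, 2.98 at PDL 55, 0.898 with control siRNA, 1.27 with AUF1 siRNA and 1.68 with HuR siRNA. DDB2, the damage sensor of nucleotide excision repair (ENSG00000134574, hg19 chromosome 11, 47236493 to 47260767), whose window held the only full site without mismatch, was at 6.03 FPKM at PDL 15, 5.62 at PDL 55, 5.45 with control siRNA, 7.81 with AUF1 siRNA and 9.04 with HuR siRNA. On annotated rows its differences were below 2-fold, at 0.23 for PDL 55 and at 0.27 and 0.34 for the AUF1 and HuR knockdowns. With assembled transcripts DDB2 was at 13.7 FPKM at PDL 15, 5.62 at PDL 55, 8.90 with control siRNA and 48.7 with HuR siRNA, and the differences were -0.83, -0.40 and 1.98. With only those assembled transcripts that span at least 50% of the gene, the HuR value was -0.28.

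The 3 comparable metabolic targets varied within a narrow range on annotated rows. SPATA18, a regulator of mitochondrial quality (ENSG00000163071, hg19 chromosome 4, 52917497 to 52963458), was at 6.25 FPKM at PDL 15, 5.58 at PDL 55, 7.73 with control siRNA, 8.26 with AUF1 siRNA and 10.0 with HuR siRNA. SESN1, sestrin 1, an inhibitor of mTORC1 signalling (ENSG00000080546, hg19 chromosome 6, 109307640 to 109416022), was at 5.66, 6.22, 3.92, 6.73 and 5.16 FPKM in the same order. TIGAR, a fructose bisphosphatase that limits glycolysis, was at 5.64, 6.64, 3.38, 4.38 and 4.23 FPKM in that order. Transcripts assembled within the gene raised TIGAR to 17.3 FPKM at PDL 15 and 14.2 with HuR siRNA, against 3.38 with control siRNA, where there were none, and its HuR difference from -0.04 to 1.45. On annotated rows 0 of these 3 were 2-fold apart in any of the 5 comparisons, which with 3 genes does not set them apart from all genes, of which 6.43% to 14.2% were in each direction.

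Regulators of p53 were given by a list of 27 genes, of which 20 could be compared. At PDL 55, 3 of the 20 were higher (9.38% of all genes) and 1 lower (10.2%), with a median of -0.40. The 3 include MDC1, a DNA damage adaptor listed at 0 at PDL 15 and at 0.625 FPKM at PDL 55, which was named after its values were seen. EP300, a histone acetyltransferase and p53 coactivator, was at 7.50 FPKM against 1.98 at PDL 15, but at 11.5 with control siRNA. DAXX, a chaperone of histones and partner of MDM2, was at 4.53 against 14.6. RCHY1, a p53 ubiquitin ligase, was at 8.15 against 4.42, and at 9.93 against 10.3 with assembled transcripts. After AUF1 siRNA 2 were higher (10.4% of all genes) and 5 lower (11.7%), of which 4 had separate intervals, and after HuR siRNA 2 were higher (11.2%) and 1 lower (12.1%). The AUF1 counts include MDC1, listed at 0 with control siRNA, and the acetyltransferase KAT5, listed at 0 with AUF1 siRNA. RCHY1 was at 1.76 FPKM with AUF1 siRNA against 8.55 with control siRNA, and COP1, another p53 ubiquitin ligase, at 5.77 against 14.2. With assembled transcripts COP1 was at 29.04 against 22.5. ATR, a kinase that signals replication stress to p53, was at 3.55 FPKM with AUF1 siRNA against 7.24, but at 16.9 against 7.94 with assembled transcripts. HIPK2, a kinase of p53, was at 145 and 158 FPKM with AUF1 and HuR siRNA against 54.5, but at 154 and 242 against 314 with assembled transcripts. Of the 314 FPKM with control siRNA, 260 stood in assembled transcripts. TP53BP1, a DNA break adaptor, was at 15.4 FPKM with HuR siRNA against 4.27, and DAXX at 3.93 against 8.83. With assembled transcripts TP53BP1 was at 15.4 against 8.13, and its difference went from 1.34 to 0.50, below 2-fold.

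Other p53 targets, a list of 43 with 32 comparable genes, included the main arrest gene of the pathway. CDKN1A, the cyclin-dependent kinase inhibitor p21 (ENSG00000124762, hg19 chromosome 6, 36644305 to 36655116), was at 145 FPKM at PDL 15, 351 at PDL 55, 74.2 with control siRNA, 392 with AUF1 siRNA and 190.3 with HuR siRNA. Its differences were 1.58 at PDL 55, 2.21 after AUF1 and 1.05 after HuR siRNA. Against PDL 15 the HuR value was 0.47, below 2-fold, and the AUF1 value 1.63. At PDL 55, 2 of 32 were higher (9.38% of all genes) and 2 lower (10.2%). TNFRSF10D, a decoy receptor for TRAIL, was at 62.7 FPKM against 17.1, and the tetraspanin CD82 lower, at 2.19 against 7.43. After AUF1 siRNA 6 were higher (10.4% of all genes) and 3 lower (11.7%), and after HuR siRNA 6 were higher (11.2%) and 2 lower (12.1%). The counts include ACTA2 and REV3L, each listed at 0 in a library compared. The transcriptional repressor BCL6 was at 14.1 FPKM with AUF1 siRNA against 1.91 with control siRNA, but at 28.5 at PDL 15. The stress cytokine GDF15 was at 20.2 FPKM with HuR siRNA and 17.1 with AUF1 siRNA, against 3.04 with control siRNA. The endocytic receptor LRP1 was at 43.5 FPKM with HuR siRNA against 8.04 with control siRNA, and at 48.7 at PDL 15. With assembled transcripts LRP1 was at 43.5 with HuR siRNA, 26.8 with control siRNA and 259 at PDL 15. Its HuR difference against control siRNA was then 0.33, below 2-fold. ACTA2 was listed at 0 in both knockdown libraries and the polymerase subunit REV3L with control siRNA, so no fold against control siRNA on annotated rows is given for either.

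Transcripts assembled from the reads held part of the signal of several members. Over all genes they summed to 3.21e+07 FPKM with control siRNA, against 617568 to 1.12e+06 in the other libraries. Differences against control siRNA that include assembled transcripts may therefore not be on the same footing. For TIGAR the assembled transcripts were short stretches inside the gene in each library that had any, while for AEN a single assembled transcript covered the whole gene in each library. DDB2 had an assembled transcript over the whole gene at PDL 15 and with control siRNA, and short stretches alone with HuR siRNA. With HuR siRNA, DDB2 had 39.6 FPKM in such transcripts, of which 30.9 stood in a stretch of 160 nucleotides. The level of these members in each library therefore differs by whether such rows are added.

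**Figure D4:**
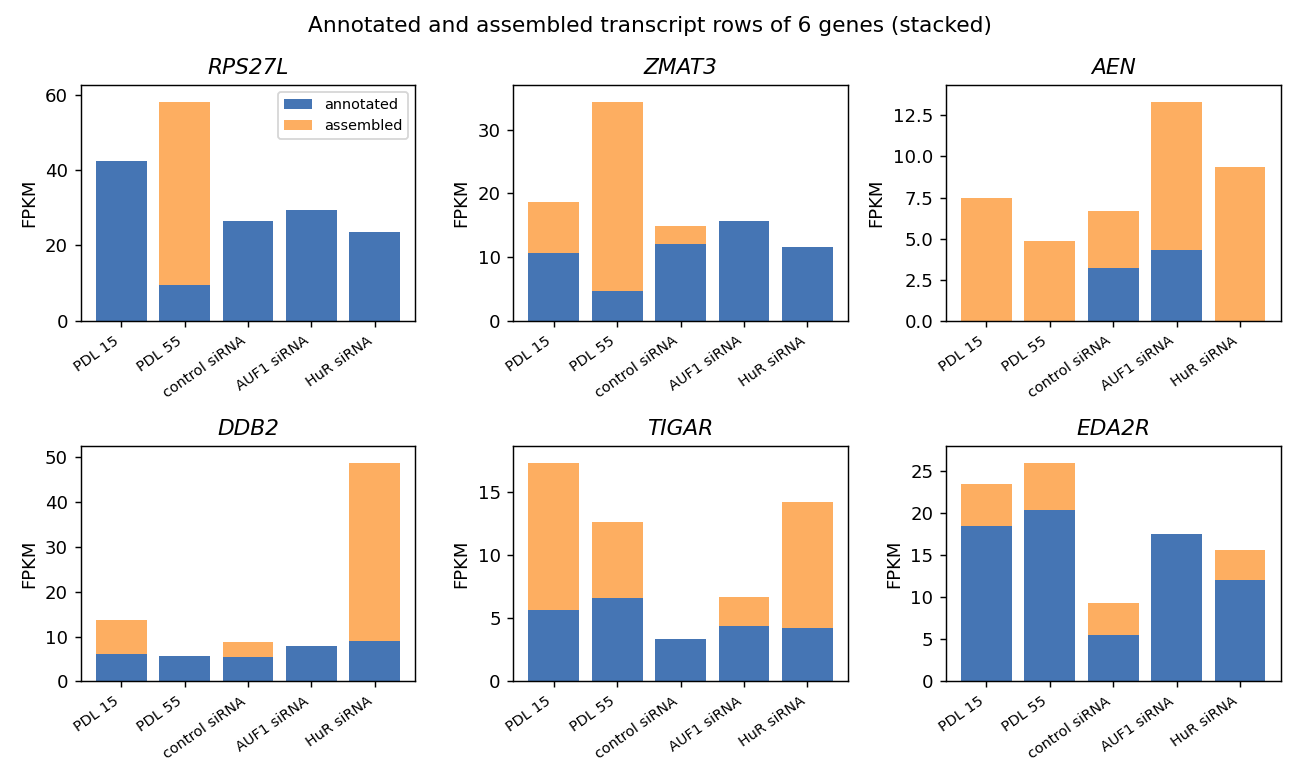
FPKM of RPS27L, ZMAT3, AEN, DDB2, TIGAR and EDA2R in each library, split into annotated (blue) and assembled transcripts (orange), stacked from 0. At PDL 55 most of the RPS27L and ZMAT3 signal is in assembled transcripts (48.4 and 29.6 FPKM), and AEN has assembled signal in every library.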

How the data were processed

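Total RNA of 5 WI-38 libraries was amplified by a single-primer isothermal method that also takes RNA without a poly(A) tail, per the labels' protocols. The deposited tables give FPKM per transcript with 95% bounds, a status and coverage, per the file headers. The authors' coverage values were used here to compare depth alone. TopHat2 2.0.6, Cufflinks 2.0.2, Cuffdiff and hg19 are named in the submitters' processing notes. The annotation release, strand setting and number of reads were not given in the sources used here, so reads of overlapping genes on opposite strands may not be told apart.

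FPKM was summed over the Ensembl transcripts of a gene with Python 3.11.15, pandas 2.3.3 and numpy 2.4.6. GENCODE 29 served to match identifiers and names, and 96.8% of 160485 transcripts were given a gene. Genes were kept from a mean FPKM of 1 upwards. Genes with a transcript of status FAIL were left out, a choice made after seeing the data. A pseudocount of 1 was added, and differences were taken relative to the median gene. A sum of bounds tends to be wider than the bounds of a sum. The script was tested on simulated data.

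Members and lists were chosen with earlier results of these data known. Members were described in full where they were 2-fold apart with separate intervals in a main comparison, together with MDM2 and the 2 most abundant members of each role, and from each list of other genes up to 4 per comparison with a mean FPKM of at least 5. Other transcript rows, pseudocounts, filters, scalings and reference libraries were tried. Status was read per row and library, so a transcript could be left out of a single library. Some genes of these lists are not reported here.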

Additional observations from a re-analysis of the deposited data

Results flagged for a closer look

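Each result here is signal in assembled transcripts, which the counts of the report do not use, of at least 5 FPKM and above the level in the control siRNA library. RPS27L had 48.4 FPKM of it at PDL 55. ZMAT3 had 8.05 FPKM at PDL 15 and 29.6 at PDL 55. AEN had 7.49 FPKM at PDL 15 and, in the AUF1 and HuR knockdowns, 8.98 and 9.37. DDB2 had 7.68 FPKM at PDL 15 and 39.6 with HuR siRNA. TIGAR had 11.6 FPKM at PDL 15, 5.96 at PDL 55 and 9.95 with HuR siRNA. At PDL 55 TNFRSF10B had 5.16 FPKM and EDA2R 5.55. With AUF1 siRNA APAF1 had 5.11 FPKM and TP53INP1 6.75. The control siRNA library had the lowest depth and 7100 assembled transcripts, against 14061 to 19116 in the other libraries, and the part of depth in these values was not tested.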

How the results depend on the processing

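No paired analysis was possible because each group had 1 library. Counts of members moved by more than 1.5 times as follows, and the cause was not tested except for the filter. The share of all genes was taken for the main setting alone, so these counts describe the processing rather than the members. Without a filter the median gene had a difference of 0, so that setting also removed the scaling and gave the values as deposited. With no filter but the median of the kept genes, a setting chosen after seeing the data, the higher counts were 4 at PDL 55, 1 after AUF1 and 1 after HuR siRNA, as in the report, and the lower counts moved to 1 after AUF1 and 2 after HuR siRNA. For PDL 55 against PDL 15, 2 members in place of 4 were higher as deposited and without a filter. For AUF1 siRNA, the 1 higher member became 3 with transcripts of status OK alone, as deposited and without a filter, 4 with the leading transcript alone or PDL 15 as reference, and 2 with a pseudocount of 0.1, fragment mass (FPKM times length) or genes of status FAIL kept. The 0 lower members became 1 with status OK alone, the leading transcript or no filter, and 2 with fragment mass or PDL 15 as reference. For HuR siRNA, the 1 higher member became 3 with assembled transcripts, status OK alone, as deposited and without a filter, 4 with the leading transcript, 2 with PDL 15 as reference or FAIL genes kept, and 0 with a mean FPKM of at least 5 or fragment mass. The 1 lower member became 0 with assembled transcripts, with those over 50% of the gene, with status OK alone and with a mean of at least 5, and 2 with the leading transcript, no filter, fragment mass or PDL 15 as reference. For control siRNA against PDL 15, the 2 higher members became 4 with a pseudocount of 0.1, 5 with fragment mass, and 1 with a mean of at least 5 or assembled transcripts over 50% of the gene. The 2 lower became 4 with status OK alone, 5 with the leading transcript, 6 as deposited and without a filter, and 1 with assembled transcripts over 50% of the gene. For AUF1 against HuR siRNA, the 1 higher became 2 with a pseudocount of 0.1 and 4 with fragment mass, and the 0 lower became 1 with assembled transcripts, status OK alone or the leading transcript. The member added by keeping FAIL genes, for both AUF1 and HuR siRNA, was TNFRSF10B. Its listed 0 with control siRNA had status FAIL, so that added count is not a measured difference.

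Directions turned for these genes that were past 2-fold on the log2 scale. RPS27L at PDL 55 was at 0.76 with assembled transcripts and 0.75 with those over 50% of the gene. AEN after HuR siRNA was at 0.087 and 0.14 under the same settings and at 0.082 against PDL 15, PLK2 after HuR siRNA at -0.67 against PDL 15, and BAX with control siRNA at -1.55 on its leading transcript. Among values below 2-fold that also turned, ZMAT3 at PDL 55 went from -0.72 to 1.16 with assembled transcripts, 1.15 with those over 50% of the gene, 2.80 with status OK alone and 2.65 by fragment mass, and CCNG1 at PDL 55 from 0.13 to -0.26 with status OK alone. Among other genes, EP300 at PDL 55 was at -0.60 against control siRNA. RCHY1 was at -2.14 with status OK alone, -1.57 by fragment mass and -0.10 against control siRNA. With AUF1 siRNA, COP1 was at 0.12 with assembled transcripts and HIPK2 at -1.26, or -1.12 with those over 50% of the gene, where REV3L was at -0.020. ATR was at 0.77 with assembled transcripts, 0.12 with status OK alone, 0.056 on its leading transcript and 0.024 by fragment mass, and BCL6 at -0.76 against PDL 15. With HuR siRNA, HIPK2 was at -0.72 and -0.75 with the 2 sets of assembled transcripts, DAXX at 0.21 by fragment mass, and REV3L and LRP1 at -0.12 and -0.079 against PDL 15. The REV3L values turned from ones that rest on its listed 0 with control siRNA, so they are not a measured change of direction. PERP at PDL 55 kept its direction and stayed past 2-fold under every setting run. Keeping FAIL genes and the assembled transcripts over 50% of the gene were settings chosen after seeing the data.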

Other observations

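Within BAX and ZMAT3 the annotated transcripts changed places between libraries. The leading BAX row, ENST00000354470 with 433 nucleotides, was at 3.07 FPKM at PDL 15, 4.33 at PDL 55, 0 with control siRNA, 11.4 with AUF1 siRNA and 10.4 with HuR siRNA, while ENST00000506183 was at 12.8 with control siRNA. For ZMAT3, ENST00000414084 was at 10.7 FPKM at PDL 15 and listed at 0 at PDL 55, where the 9406-nucleotide ENST00000311417 was at 4.68. The share of short transcripts was high in several members, at 100% for BAX and 96.5% for EDA2R in rows under 1000 nucleotides, against 0 for PERP.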
